A study of Arabidopsis thaliana with 15 samples.

Results

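DUF506 proteins are a plant family whose shared region resembles the PD-(D/E)XK fold of nucleases, and whose biochemical activity is not known for most members. The 10 loci described here were taken by locus identifier from the 32833 genes of the deposited Arabidopsis count table: AT2G20670, AT4G32480, AT3G07350, AT3G25240, AT1G62420, AT1G12030, AT3G22970, AT4G14620, AT2G38820 and AT2G39650. AT2G20670 and AT4G32480 brought the family to notice because of their values in these same libraries, so their values are given as a description with no test. The other 8 were taken because they belong to the family, but they are not all of its other loci. AT1G77145, also described as DUF506, passed the filter on low counts but is outside the 10 and in none of the counts of members. The members were chosen with earlier results of these data known. The gene descriptions in the deposited table assigned the family's domain to all 10, and to 14 loci of the table in all. All 10 passed the filter on low counts, which left 20721 genes.

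RNA came from whole seedlings of the Col-0 accession, which had grown for 1 week, untreated, on medium with 1% sucrose. Each of 5 genotypes gave 3 libraries, so that n = 3 for every genotype below: wild type (WT), a gyf1 and a gyf2 single mutant, and a pair of double mutants written gyf1 gyf2-1 and gyf1 gyf2-2. The labels name no locus, insertion or zygosity for the mutants. Whether gyf2-1 and gyf2-2 are alleles or lines, and which one the gyf2 single mutant carries, is not stated. Separate cultures are not mentioned either, and the p-values therefore measure only the spread between these samples, which may be technical.

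Libraries held 16567801 to 24681140 counts. Markers of green tissue (RBCS1A, LHCB1.3, LHCB2.1 and PSAF) and of root (SCR, PHT1;1, PIP2;2 and RHD2) were present in every genotype, which fits whole seedlings. Of the 12 tested genes described with a GYF domain, edgeR called 0 in gyf1 and 0 in gyf2, and DESeq2 0 and 1. In edgeR, 2 and 2 had an unadjusted p below 0.05. AT1G24300 was lower in gyf1 (-0.28, unadjusted p = 0.00928) and not in gyf2 (0.17). AT1G27430 was lower in gyf2 (-0.41, unadjusted p = 0.00194) and not in gyf1 (0.12). AT2G18090 was higher in both (0.20 and 0.23). As the labels name no locus, these transcripts gave no firm check of the mutant labels. On the second principal component, WT replicate 1, gyf2 replicate 3, gyf1 gyf2-1 replicate 1 and gyf1 gyf2-2 replicate 2 lay apart from their own replicates, and results that change without one of them are given with that value. In whole seedlings, fewer cells of a type and less RNA per cell cannot be told apart.

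As background, 2 members have a described role in Arabidopsis, and the other members have none that is established here. AT3G25240 encodes RXR1, a repressor of excessive root hair elongation that is induced when phosphate is limiting and binds the small GTPase RABD2C. AT1G62420 encodes RXR3, which binds calmodulin and also limits root hair elongation. Root hairs are outgrowths of single epidermal cells that enlarge the surface for phosphate uptake. The deposited annotation describes AT2G20670 and AT4G32480 as putative sugar phosphate exchangers of the DUF506 group, a name that no measurement here bears on.

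The proteins that the reference annotation gives for the members were 281 to 370 residues long. In their alignment, 194 columns held a residue in every member and 16 of those were identical in all. Over the 45 pairs, identity ranged from 22.2 to 75.9% with a median of 28.3%. AT2G20670 and AT4G32480 were the most alike, at 75.9%. AT3G22970 and AT4G14620 shared 65.4%, and AT1G62420 (RXR3) and AT1G12030 shared 64.2%. AT2G38820 was closest to AT3G22970 at 53.6%, and AT3G25240 (RXR1) and AT3G07350 were closest to each other at 48.5%. AT2G39650 was the most separate, at no more than 31.7% to any other member. AT3G25240 and AT3G07350 had 1 coding segment, AT1G62420 and AT1G12030 had 2, and the other members had 3.

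**Figure D1:**
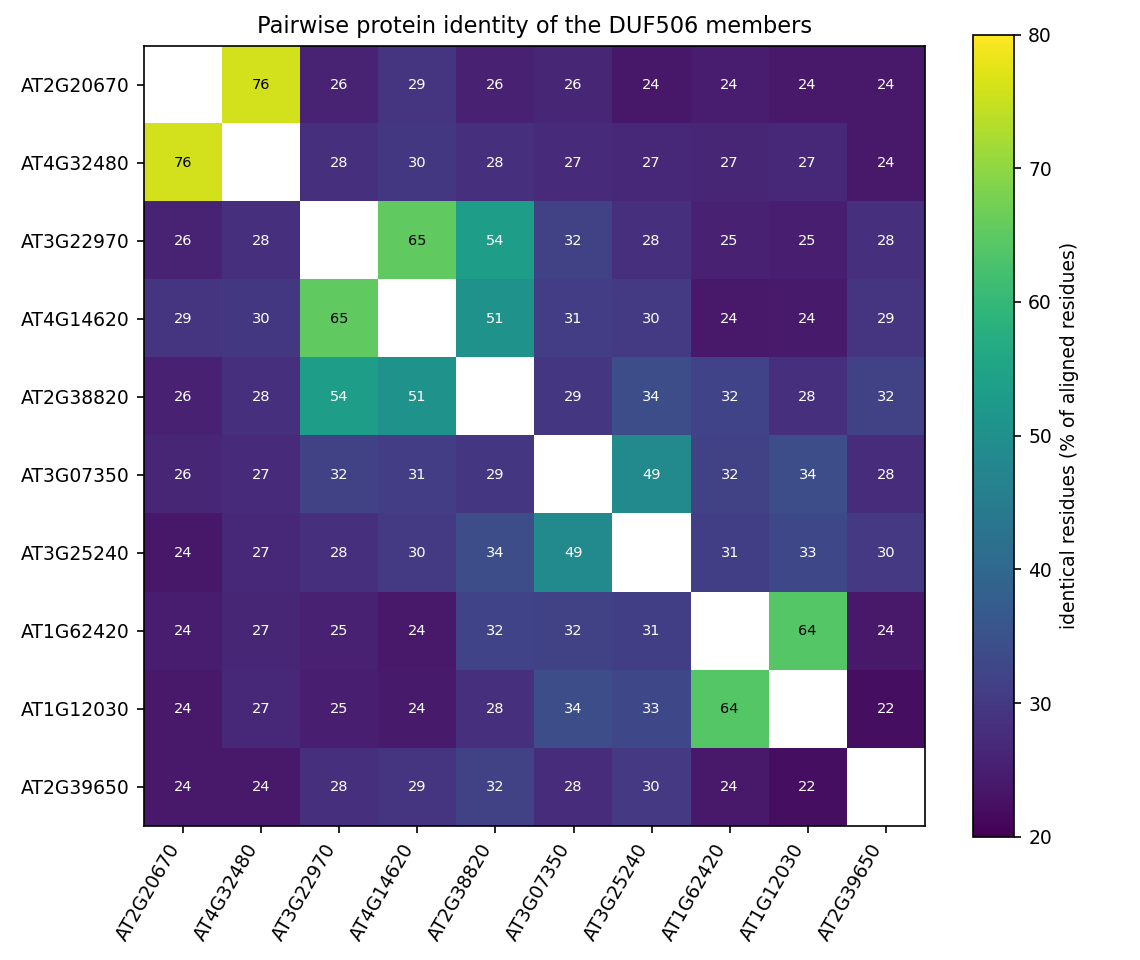
Percent identity of the proteins of the 10 members, for each pair over the residues aligned in both; brighter cells are more alike. The pair AT2G20670 and AT4G32480 is the most alike at 75.9%, and AT2G39650 has no partner above 31.7%.

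AT2G20670 lies at chr2:8911860-8913747 on the minus strand and AT4G32480 at chr4:15676240-15677977 on the plus strand of TAIR10. Counts of AT2G20670 were 848 to 4149 per library. As CPM, the count scaled to library size, AT2G20670 measured 43.8, 42.4 and 46.9 in WT, 97.5, 73.3 and 89.1 in gyf1, and 161, 146 and 117 in gyf2. In gyf1 gyf2-1 it measured 216, 201 and 192 CPM, and in gyf1 gyf2-2 205, 205 and 195 CPM. The ranges of WT, gyf1 and gyf2 did not overlap, every double mutant library was above every single mutant library, and the double mutants overlapped each other. On the log2 scale gyf1 differed from WT by 0.97 (SE 0.10) and gyf2 by 1.67 (SE 0.10). The double mutants differed from WT by 2.20 (SE 0.10) and 2.19 (SE 0.10), in the order gyf1 gyf2-1, gyf1 gyf2-2 that is kept below.

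AT4G32480, its nearest relative, lay in the same order of genotypes from a lower level. It measured 9.90, 9.96 and 10.8 CPM in WT, 17.4, 17.7 and 19.4 CPM in gyf1, and 34.6, 32.8 and 27.9 CPM in gyf2. In gyf1 gyf2-1 it measured 55.2, 55.2 and 51.7 CPM, and in gyf1 gyf2-2 56.4, 63.6 and 56.0 CPM. Here too WT, gyf1, gyf2 and the double mutants took 4 separate ranges, and the 3 libraries of gyf1 gyf2-2 were all above those of gyf1 gyf2-1. Its log2 difference from WT was 0.83 (SE 0.10) for gyf1, 1.64 (SE 0.09) for gyf2, and 2.40 (SE 0.09) and 2.52 (SE 0.09) for the double mutants. With 75.9% identity between the proteins, reads that match both genes could be split between them, and their treatment in the authors' counting is not stated in the material used.

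**Figure D2:**
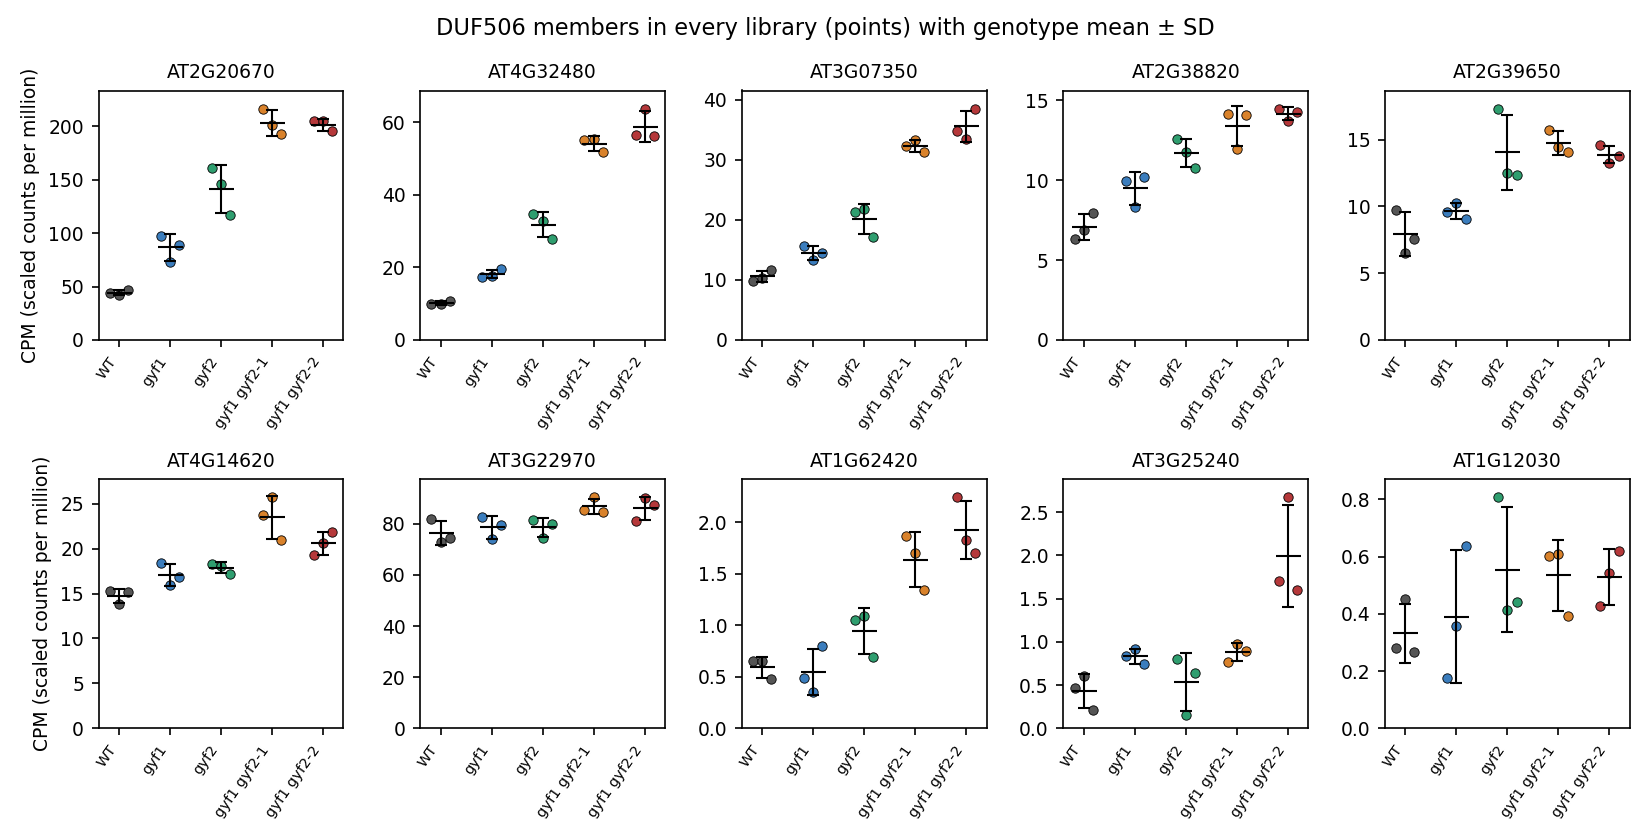
CPM of each of the 10 members in every library, by genotype, on linear axes that start at 0; points are libraries, coloured by genotype, and lines are the genotype mean ± SD. AT2G20670 and AT4G32480 step up from WT through gyf1 and gyf2 to the double mutants, while AT3G22970 stays between 73.0 and 90.2 CPM.

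The bases before the gene starts are shown for the 5 members that hold a match to one of 3 motifs and were high in at least 1 double mutant, so that the matches can be read in place. AT1G62420, AT4G14620 and AT2G39650, which were called higher in both double mutants, hold none of the 3 motifs and are not shown. Capitals mark matches on either strand to GNATATNC (the site read by the phosphate regulator PHR1), TATCCA (a sugar starvation element) or CACGTG (the G-box). Each line holds the 250 bases before the annotated gene start in RefSeq's TAIR10.1 genome, 5′ to 3′ on the gene's strand. In order, these are chr2:8913748-8913997 (minus strand), chr4:15675990-15676239 (plus), chr3:2346936-2347185 (plus), chr3:9192243-9192492 (plus) and chr2:16221565-16221814 (plus).
AT2G20670: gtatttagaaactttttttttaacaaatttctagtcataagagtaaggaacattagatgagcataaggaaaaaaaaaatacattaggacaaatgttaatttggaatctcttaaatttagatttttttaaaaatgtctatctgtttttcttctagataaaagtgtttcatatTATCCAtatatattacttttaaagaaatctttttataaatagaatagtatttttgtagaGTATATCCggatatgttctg
AT4G32480: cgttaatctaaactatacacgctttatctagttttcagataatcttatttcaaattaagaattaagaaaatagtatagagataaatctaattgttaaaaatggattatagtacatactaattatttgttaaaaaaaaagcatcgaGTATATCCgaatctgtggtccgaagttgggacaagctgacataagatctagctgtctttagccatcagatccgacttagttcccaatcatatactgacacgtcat
AT3G07350: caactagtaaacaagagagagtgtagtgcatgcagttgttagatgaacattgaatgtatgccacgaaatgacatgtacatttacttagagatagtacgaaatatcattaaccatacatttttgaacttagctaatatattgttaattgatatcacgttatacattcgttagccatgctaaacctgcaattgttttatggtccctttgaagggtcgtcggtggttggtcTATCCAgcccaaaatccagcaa
AT3G25240: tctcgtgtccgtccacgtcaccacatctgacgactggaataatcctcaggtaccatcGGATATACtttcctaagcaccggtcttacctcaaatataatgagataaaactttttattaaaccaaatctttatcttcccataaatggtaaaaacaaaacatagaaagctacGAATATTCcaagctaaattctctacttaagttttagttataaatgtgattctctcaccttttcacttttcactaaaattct
AT2G38820: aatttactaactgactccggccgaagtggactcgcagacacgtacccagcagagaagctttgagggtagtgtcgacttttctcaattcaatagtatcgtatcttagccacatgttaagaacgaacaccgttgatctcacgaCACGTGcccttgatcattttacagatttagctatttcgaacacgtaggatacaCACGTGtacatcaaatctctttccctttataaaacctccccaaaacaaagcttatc

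The windows of AT2G20670 and AT4G32480 both held GTATATCC, which began 20 and 105 bases before the gene start. AT3G25240 held GGATATAC and GAATATTC, which began 193 and 81 bases before its start, and AT1G12030 held GCATATCC, 210 bases before. Over the window from 250 bases before to 50 bases after the start, GNATATNC was thus found in 4 of 10 members, and in 6.25% of the 27443 promoters of the annotation. TATCCA was in AT2G20670 and AT3G07350 and in 16.1% of all promoters. CACGTG was in AT2G38820 alone among the members, at 2 places, and in 7.68% of all promoters. ACTCAT, read by S1-group bZIP factors, was in AT2G39650 alone and in 14.7% of all promoters. The letters of TTGAC (W-box core) were in AT1G12030 alone, against 50.5% of all promoters, CGCG was in AT4G32480 alone, against 13.0%, and the evening element AAATATCT was in 0 of 10, against 5.65%. For AT3G07350 the window ends at the gene start, which lies before the start of its RefSeq mRNA. A match describes letters only and is not a measured site.

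In gyf1, 1 of the 8 members chosen by family passed the test as higher than WT, while 0.405% of all tested genes did. In gyf2, 3 of 8 did (1.99% of all tested genes), in gyf1 gyf2-1 5 of 8 (14.2%), and in gyf1 gyf2-2 6 of 8 (15.1%). Genes called lower made up 0.116, 0.516, 11.7 and 12.6% of all tested genes in these 4 comparisons. Among the 8 members, edgeR called 0 lower in each of them, 0 at unadjusted p below 0.05, and DESeq2 and limma called 0 as well. AT1G77145, which is outside the 8, lay below WT by its estimates (-0.54, -0.22, -0.23 and -0.31) and was not called in edgeR. The 4 comparisons share the WT libraries. The median of all tested genes was between -0.01 and 0.00 on the log2 scale in these comparisons. AT3G07350 was called in all 4. Called higher in gyf2 and in both double mutants were 3 of 8 members, AT3G07350, AT2G38820 and AT2G39650, and 1.80% of all tested genes.

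AT3G07350 (chr3:2347186-2348791, plus strand), the closest relative of RXR1, has no described role used here. It measured 9.76, 10.4 and 11.6 CPM in WT, 15.7, 13.3 and 14.6 CPM in gyf1, and 21.3, 21.8 and 17.2 CPM in gyf2. In gyf1 gyf2-1 it measured 32.3, 33.3 and 31.3 CPM, and in gyf1 gyf2-2 34.9, 33.5 and 38.5 CPM. No library of WT, gyf1 or gyf2 overlapped another of these genotypes, and the double mutants were above all 3. In edgeR, AT3G07350 rose by 0.46 ± 0.11 (log2 ± SE) in gyf1, with an adjusted p of 0.0414. It rose by 0.93 ± 0.10 in gyf2 (adjusted p = 3.38e-07), and in the double mutants by 1.61 ± 0.10 (adjusted p = 1.35e-12) and 1.76 ± 0.10 (adjusted p = 1.28e-13). The gyf1 call was lost without any one of 7 libraries, namely WT replicates 1 (adjusted p = 0.218) and 2 (0.128), gyf1 replicates 1 (0.207) and 3 (0.129), gyf1 gyf2-1 replicates 2 (0.0527) and 3 (0.0520), and gyf1 gyf2-2 replicate 1 (0.0506). The other 3 calls were kept without any single library.

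AT2G38820 (chr2:16221815-16223746, plus strand) and AT2G39650 (chr2:16527730-16529494, minus strand) were called in gyf2 and in both double mutants. AT2G38820 measured 6.34, 6.86 and 7.96 CPM in WT, 9.97, 8.30 and 10.2 CPM in gyf1, and 12.6, 11.8 and 10.8 CPM in gyf2. It measured 14.2, 11.9 and 14.1 CPM in gyf1 gyf2-1 and 14.5, 13.7 and 14.3 CPM in gyf1 gyf2-2. All mutant libraries were above WT, and gyf2 overlapped gyf1 gyf2-1. It rose by 0.74 ± 0.12 in gyf2 (adjusted p = 0.000277), and in the double mutants by 0.93 ± 0.12 (adjusted p = 1.98e-06) and 1.01 ± 0.12 (adjusted p = 3.04e-07). Its gyf1 difference of 0.43 ± 0.13 was not called (adjusted p = 0.172).

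AT2G39650 measured 9.76, 6.51 and 7.54 CPM in WT, 9.62, 10.3 and 9.09 CPM in gyf1, and 17.3, 12.5 and 12.4 CPM in gyf2. It measured 15.8, 14.5 and 14.1 CPM in gyf1 gyf2-1 and 14.6, 13.3 and 13.8 CPM in gyf1 gyf2-2. The gyf1 libraries overlapped WT, and the gyf2 and double mutant libraries overlapped each other above WT. AT2G39650 rose by 0.83 ± 0.14 in gyf2 (adjusted p = 0.000242), and in the double mutants by 0.89 ± 0.14 (adjusted p = 2.09e-05) and 0.80 ± 0.14 (adjusted p = 6.18e-05). Its gyf1 difference was 0.28 ± 0.14 (adjusted p = 0.514). Its neighbour BIK1, which encodes a cytoplasmic kinase that acts downstream of immune receptors and lies 2033 bases away, was also called higher in gyf2 (0.33, adjusted p = 0.00994) and in the double mutants (0.44, adjusted p = 9.37e-05, and 0.42, adjusted p = 9.90e-05). Other neighbours called in edgeR went both ways. ROF1, beside AT3G25240, was lower in both double mutants (-0.18, adjusted p = 0.0459, and -0.19, adjusted p = 0.0284). HTA8, beside AT2G38820, was lower in gyf1 gyf2-1 (-0.52, adjusted p = 0.00611). In gyf1 gyf2-2, AT1G12020, beside AT1G12030, was lower (-0.35, adjusted p = 0.0499) and CDS1, beside AT1G62420, was higher (0.24, adjusted p = 0.0354). No member overlapped another annotated gene.

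AT4G14620 (chr4:8389040-8390833, minus strand) and AT3G22970 (chr3:8152038-8154149, plus strand) are close relatives with the smallest changes among the 7 members with 130 or more counts in every library. AT4G14620 measured 15.3, 13.9 and 15.1 CPM in WT, 18.4, 15.9 and 16.8 CPM in gyf1, and 18.3, 18.1 and 17.2 CPM in gyf2. It measured 23.7, 25.7 and 21.0 CPM in gyf1 gyf2-1 and 19.3, 20.6 and 21.9 CPM in gyf1 gyf2-2. The single mutants overlapped each other, and both double mutants were above them. In the double mutants it rose by 0.67 ± 0.10 (adjusted p = 6.81e-06) and 0.48 ± 0.10 (adjusted p = 0.000373). The gyf1 difference of 0.21 (adjusted p = 0.477) and the gyf2 difference of 0.28 (adjusted p = 0.164) were not called.

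AT3G22970 measured 81.8, 73.0 and 74.6 CPM in WT, 85.4, 90.2 and 84.6 CPM in gyf1 gyf2-1, and 81.1, 90.0 and 87.1 CPM in gyf1 gyf2-2. Both single mutants, at 73.8 to 82.6 CPM, overlapped WT. The double mutants differed from WT by 0.18 ± 0.07 (adjusted p = 0.0503) and 0.17 ± 0.07 (adjusted p = 0.0617), not called in edgeR. The call turned on the setting, with 12 alternatives calling it in gyf1 gyf2-1 and 3 in gyf1 gyf2-2. For gyf1 gyf2-1 these included DESeq2 (adjusted p = 0.0406), limma on log2(FPKM + 0.5) (adjusted p = 0.0421) and the fits without WT replicate 1, gyf1 replicate 1 or 2, gyf2 replicate 2 or 3, or gyf1 gyf2-2 replicate 1 or 2 (adjusted p = 0.0225 to 0.0496). For gyf1 gyf2-2 they were the replicate block (adjusted p = 0.0485) and the fits without WT replicate 1 (0.0247) or gyf1 gyf2-2 replicate 1 (0.0449). Without WT replicate 1, which lay apart, the differences were 0.23 and 0.22. With all libraries, the larger difference was 1.13-fold.

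The 3 remaining members were near the detection limit. AT3G25240 (RXR1; chr3:9192493-9193615, plus strand) had 3 to 54 counts per library, AT1G62420 (RXR3; chr1:23102777-23104756, minus strand) 7 to 42, and AT1G12030 (chr1:4064485-4066344, minus strand) 4 to 20. The filter's level of 0.517 CPM was reached by 12, 12 and 6 of the 15 libraries. For AT1G12030 it was reached by 0 WT libraries.

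AT3G25240 measured 0.469, 0.601 and 0.212 CPM in WT, 0.838, 0.917 and 0.744 CPM in gyf1, and 0.807, 0.156 and 0.639 CPM in gyf2. It measured 0.768, 0.974 and 0.897 CPM in gyf1 gyf2-1 and 1.71, 2.67 and 1.60 CPM in gyf1 gyf2-2. The gyf1 gyf2-2 libraries were above all others, and the gyf2 libraries spread across the WT range. RXR1 rose by 2.19 ± 0.43 in gyf1 gyf2-2 (adjusted p = 0.000233). Its difference from WT was not called in gyf1 gyf2-1 (1.02 ± 0.47, adjusted p = 0.116), gyf1 (0.94 ± 0.47, adjusted p = 0.499) or gyf2 (0.35 ± 0.49, adjusted p = 0.804). Between the double mutants it differed by 1.18 ± 0.39, higher in 3 of 3 gyf1 gyf2-2 libraries, at unadjusted p = 0.0055 and adjusted p = 0.411.

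AT1G62420 measured 0.657, 0.651 and 0.478 CPM in WT, 0.485, 0.357 and 0.797 CPM in gyf1, and 1.05, 1.09 and 0.688 CPM in gyf2. It measured 1.87, 1.70 and 1.34 CPM in gyf1 gyf2-1 and 2.24, 1.83 and 1.70 CPM in gyf1 gyf2-2. Both double mutants were above every other genotype, and gyf1 overlapped WT. In the double mutants RXR3 rose by 1.45 ± 0.36 (adjusted p = 0.00349) and 1.68 ± 0.35 (adjusted p = 0.000553). It was not called in gyf1 (-0.14, adjusted p = 0.935) or gyf2 (0.66, adjusted p = 0.462). Its relative AT1G12030 ranged from 0.265 to 0.450 CPM in WT and from 0.392 to 0.619 CPM in the double mutants, which overlapped, and was not called (0.67 ± 0.53, adjusted p = 0.381, and 0.66 ± 0.53, adjusted p = 0.379).

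**Figure D3:**
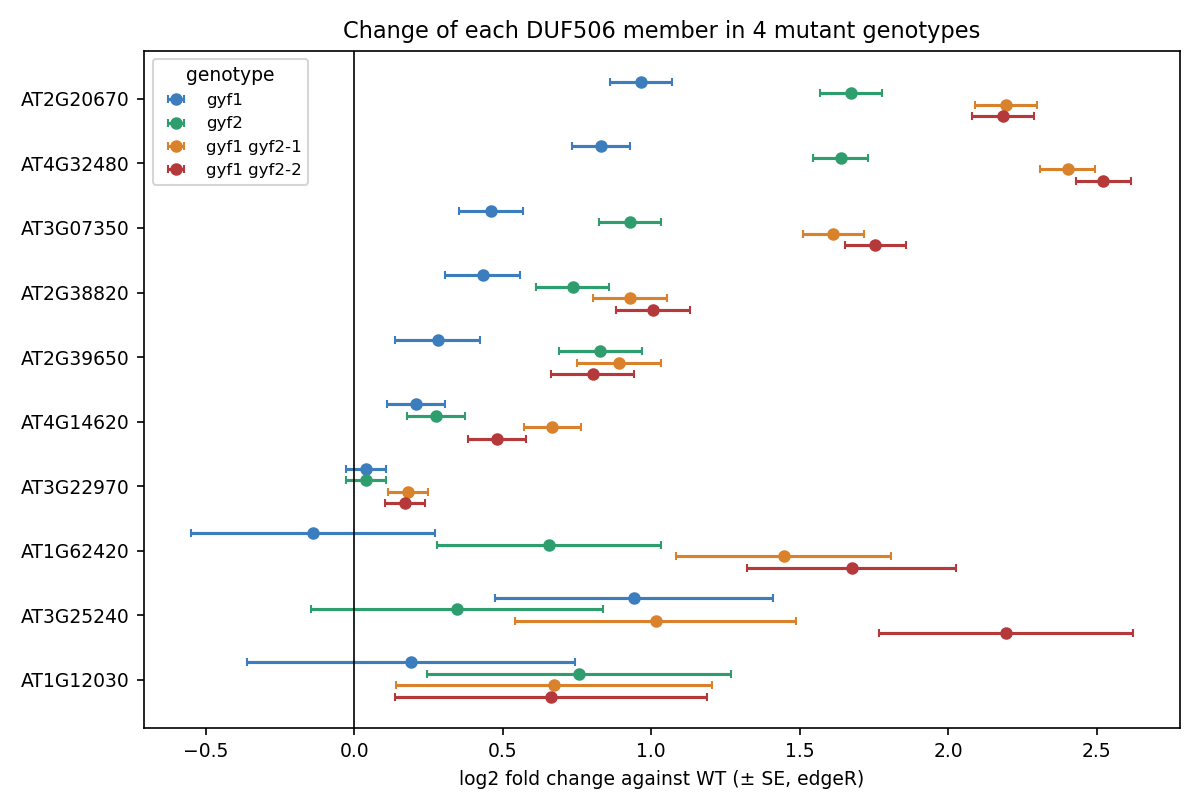
Log2 fold change from WT (± SE) of each member in the 4 mutants, coloured by genotype, with the vertical line at 0. By their estimates, AT2G20670, AT4G32480, AT3G07350, AT2G38820, AT4G14620 and AT1G62420 lie in the order gyf1, gyf2, double mutants. AT3G22970 stays at or below 0.18, and the 3 members with few counts have the widest errors.

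Levels of different members were compared as the deposited FPKM, which is scaled by gene length. In WT the order was AT3G22970 (39.3 ± 2.41 FPKM, SD), AT2G20670 (30.2 ± 1.56), AT4G14620 (9.08 ± 0.485), AT4G32480 (7.73 ± 0.375), AT3G07350 (6.54 ± 0.576), AT2G39650 (4.70 ± 0.984), AT2G38820 (3.79 ± 0.449), AT1G62420 (0.508 ± 0.0866), AT3G25240 (0.378 ± 0.175) and AT1G12030 (0.280 ± 0.0863). Overlapping neighbours in that order were AT2G39650 with AT2G38820 and, among the 3 lowest, each with the next. In gyf1, gyf2 and both double mutants AT2G20670 was first, at 59.0 ± 8.42, 96.4 ± 14.9, 139 ± 8.06 and 137 ± 3.67 FPKM. AT4G32480, below AT4G14620 in WT, reached 44.5 ± 3.15 FPKM in gyf1 gyf2-2, where it overlapped AT3G22970 at 44.3 ± 2.27 FPKM.

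Summed over the 10 members, and so without AT1G77145, the level was 102 ± 4.06 FPKM in WT. It was 145 ± 12.6 FPKM for gyf1, 201 ± 21.3 FPKM for gyf2, and 277 ± 11.5 and 280.5 ± 5.18 FPKM for the double mutants. AT2G20670 made up 29.4 ± 1.10% of that sum in WT, 40.5 ± 2.36% in gyf1 and 47.8 ± 2.58% in gyf2. In the double mutants its share was 49.9 ± 1.18% and 48.9 ± 1.15%. AT3G22970 went from 38.3 ± 1.62% in WT to 16.1 ± 0.727% and 15.8 ± 0.655% in the double mutants, while its own level was 39.3 FPKM in WT and 44.7 and 44.3 FPKM there. These sums follow the 2 members chosen by their values and are a description.

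In gyf2 against gyf1, 2 of 8 members were called higher (0.845% of all tested genes). AT3G07350 was higher in gyf2 by 0.47 ± 0.10 (adjusted p = 0.0116) and AT2G39650 by 0.55 ± 0.14 (adjusted p = 0.0428). Neither call was stable to leaving out libraries. Without gyf2 replicate 1 the values were 0.43 (adjusted p = 0.109) and 0.37 (adjusted p = 0.545). AT3G07350 was also lost without gyf2 replicate 2 (adjusted p = 0.105) and gyf1 replicates 2 (0.126) and 3 (0.0515). AT2G39650 was also lost without gyf1 replicates 1 (0.155), 2 (0.0925) and 3 (0.220), gyf1 gyf2-1 replicates 2 (0.0549) and 3 (0.0519), and gyf1 gyf2-2 replicate 3 (0.0599).

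Against gyf1, the mean of the double mutants was called higher for 5 of 8 members (14.3% of all tested genes). These were AT3G07350 (1.22, SE 0.09, adjusted p = 2.08e-11), AT1G62420 (1.70, SE 0.33, adjusted p = 0.000228), AT2G39650 (0.57, SE 0.12, adjusted p = 0.000737), AT2G38820 (0.54, SE 0.11, adjusted p = 0.000321) and AT4G14620 (0.36, SE 0.08, adjusted p = 0.00158). Each was also called without any single library.

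Against gyf2, 4 of 8 were called higher (12.2% of all tested genes). AT3G07350 was higher in the double mutants by 0.76 (SE 0.08, adjusted p = 1.52e-07) and kept its call without any single library. AT3G25240 was higher by 1.26 (SE 0.38, adjusted p = 0.0175), but by 0.86 (adjusted p = 0.144) without gyf2 replicate 2, its lowest library. AT4G14620 was higher by 0.30 (SE 0.08, adjusted p = 0.00983), and by 0.27 (adjusted p = 0.0541) without gyf2 replicate 3. AT1G62420 was higher by 0.90 (SE 0.29, adjusted p = 0.0268), a call lost without gyf2 replicates 1 (adjusted p = 0.0559), 2 (0.0513) or 3 (0.136), gyf1 gyf2-1 replicate 1 (0.0541) or gyf1 gyf2-2 replicate 1 (0.0571). AT2G38820 (0.23, adjusted p = 0.107) and AT2G39650 (0.02, SE 0.11, adjusted p = 0.931) were not called. Between the double mutants themselves, 0 of 8 were called in edgeR (0.232% of all tested genes either way), 1 at unadjusted p below 0.05, which was AT3G25240, and 0 by DESeq2.

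Non-additivity compares the log2 change averaged over both double mutants with the summed changes of gyf1 and gyf2, and is positive where the double mutants lie above that sum. Of the 8 members, 0 were called in edgeR (7.20% of all tested genes either way), 2 had an unadjusted p below 0.05, and DESeq2 and limma called 0. Those 2 were AT1G62420 (1.04, SE 0.51, adjusted p = 0.242) and AT3G07350 (0.29, SE 0.14, adjusted p = 0.218), both with double mutants above the sum. AT2G38820 (-0.20, SE 0.16, adjusted p = 0.537) and AT2G39650 (-0.26, SE 0.18, adjusted p = 0.461) lay below the sum and were not called. As a description, AT4G32480 had a sum of 2.47 (SE 0.17) and a double mutant mean of 2.46 (SE 0.09). AT2G20670 had a sum of 2.64 (SE 0.19) and a double mutant mean of 2.19 (SE 0.10). Sum and mean share the WT libraries, so their errors are not independent. Their difference was -0.01 (SE 0.12) for AT4G32480 and -0.45 (SE 0.13) for AT2G20670.

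**Figure D4:**
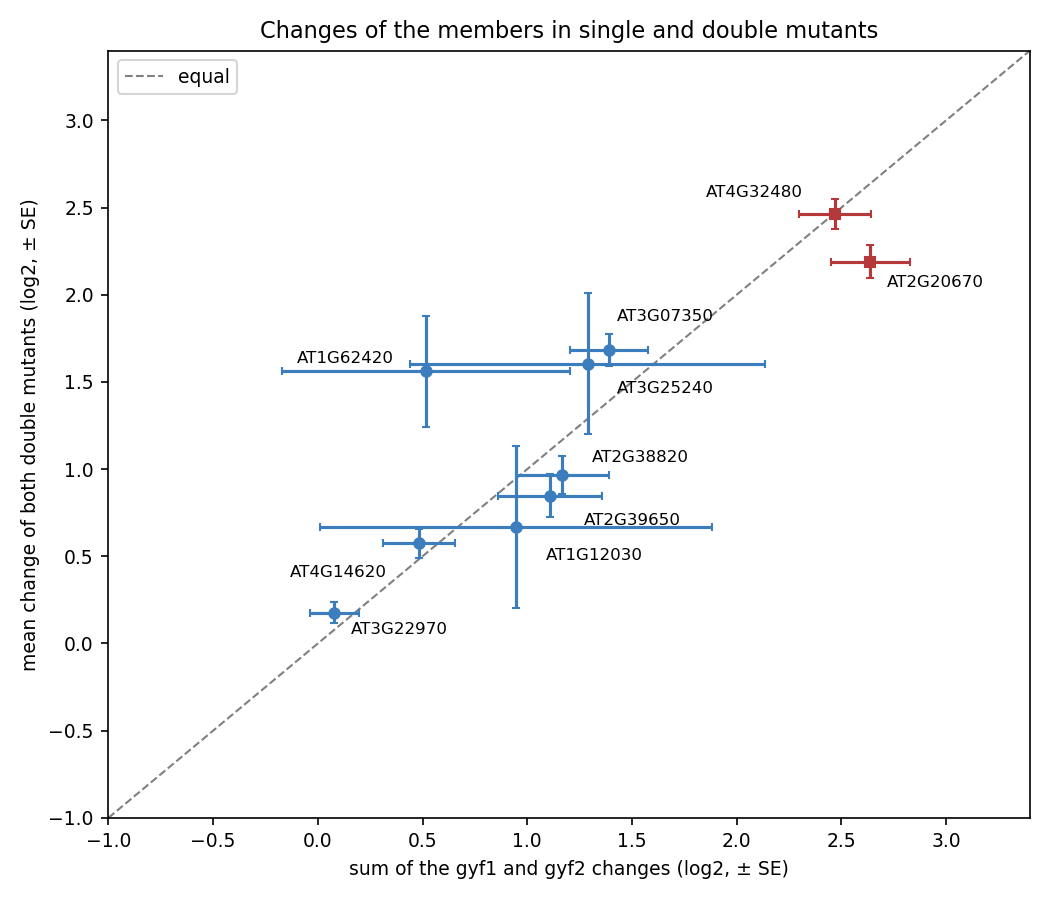
For each member, the sum of its log2 changes in gyf1 and gyf2 (x axis, ± SE) against the mean of its changes in the double mutants (y axis, ± SE); the dashed line marks equal values and red squares mark the members chosen by their values. AT4G32480 lies on the line at 2.47 and 2.46, and AT2G20670 below it at 2.64 and 2.19. AT1G62420 lies above it at 0.52 and 1.56 with wide errors. Both axes share the WT libraries, so their errors are not independent.

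Over the 15 libraries, the genes most like AT4G32480 by Pearson correlation of log2 CPM were RAV1 (0.990), AT3G25600 (0.990), TPS11 (0.989), AT3G15450 (0.989) and AT5G19120 (0.987), and AT2G20670 ranked 7 and AT3G07350 ranked 8. The genes most like AT2G20670 were AT5G19120 (0.992), HSPRO2 (0.988), BT2 (0.987), MYB73 (0.986) and AT1G80440 (0.986), and AT4G32480 ranked 6 and AT2G38820 ranked 15. Libraries of a genotype lay together, so these correlations largely compare genotype means. Within genotypes, after subtracting each genotype's mean, the correlation was 0.65 between AT2G20670 and AT4G32480, 0.74 between AT2G20670 and AT3G07350, and -0.53 between the relatives AT3G25240 and AT3G07350. The values 0.74 and -0.53 were the highest and the lowest of all 45 pairs. Other close relatives had 0.65 (AT3G22970 and AT4G14620), 0.48 (AT1G62420 and AT1G12030) and -0.12 (AT3G22970 and AT2G38820). AT3G25240 had 3 to 54 counts per library, and values of a library share its scaling, so all are descriptions.

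Genes of the processes in which RXR1 and RXR3 are known were read beside them. Of 25 root hair growth genes, 1 was called higher and 1 lower in gyf1 gyf2-1 (median -0.05), and 1 higher and 2 lower in gyf1 gyf2-2 (median -0.01), against 14.2% higher and 11.7% lower, and 15.1% and 12.6%, of all tested genes. The called ones were FER, a receptor kinase of cell growth (0.43, adjusted p = 9.18e-05, and 0.37, adjusted p = 0.000403), XTH26, a cell wall enzyme (-1.26, adjusted p = 0.0301 in gyf1 gyf2-1), COW1, a phosphatidylinositol transfer protein (-0.53, adjusted p = 0.00321 in gyf1 gyf2-2), and RHS10, a receptor-like kinase (-0.54, adjusted p = 0.0496 in gyf1 gyf2-2). Of the same 25, 1 was called higher and 4 lower when both double mutants together were set against gyf1 (14.3% higher and 11.2% lower among all tested genes). The higher one was FER (0.21, adjusted p = 0.0173). The 4 were RHD2, an NADPH oxidase of root hair growth (-0.45, adjusted p = 0.00697), the transcription factor RSL2 (-0.64, adjusted p = 0.0197), the expansin EXPA7 (-0.54, adjusted p = 0.0306) and RHS10 (-0.54, adjusted p = 0.0179). Against gyf2, RSL2 was called lower (-0.58, adjusted p = 0.0403), where 8.86% of all tested genes were, and in non-additivity RHD2 was called lower (-0.60, adjusted p = 0.0492). Of 4 RAB D GTPases, the RXR1 partner RABD2C was called in gyf1 gyf2-2 (0.18, adjusted p = 0.0280) and 0 in gyf1 gyf2-1. Of 7 calmodulins, CAM1 was called against WT in gyf1 gyf2-2 (0.19, adjusted p = 0.0448) and 0 in gyf1 gyf2-1. With both double mutants set against gyf1, 2 of 7 were called higher, CAM1 (0.16, adjusted p = 0.0444) and CAM4 (0.24, adjusted p = 0.0121). Both were also called higher against gyf2 (0.20, adjusted p = 0.0166, and 0.22, adjusted p = 0.0260), as were 12.2% of all tested genes. In non-additivity 1 of 7 was called, against 7.20% of all tested genes.

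Of 19 phosphate starvation genes, 14 were called higher in gyf1 gyf2-1 (median 0.49) and 15 in gyf1 gyf2-2 (median 1.00), with 0 lower in either. Among all tested genes, 14.2% and 15.1% were called higher there. In gyf1 and gyf2, where 0.405% and 1.99% of all tested genes were called higher, edgeR and DESeq2 each called 0 of the 19, while 3 had an unadjusted p below 0.05 in gyf1 (all higher), and 2 higher and 3 lower in gyf2. The genes with the lowest adjusted p in gyf1 gyf2-2 were SRG3, a glycerophosphodiester phosphodiesterase (1.05, adjusted p = 5.63e-11, and 1.41, adjusted p = 9.79e-14), the phosphate sensor SPX1 (0.49, adjusted p = 5.07e-05, and 1.03, adjusted p = 8.32e-11) and the phospholipase PLDZ2 (1.18, adjusted p = 5.67e-08, and 1.55, adjusted p = 1.52e-10). The mRNA of PHR1 itself differed by -0.03 and 0.01. In gyf1 gyf2-2 against gyf1 gyf2-1, 4 of the 19 were called higher (median 0.36), where 0.232% of all tested genes were called either way. In non-additivity 13 of the 19 were called, all higher, against 7.20% of all tested genes either way. RXR1, the member known to respond to phosphate, was called against WT in gyf1 gyf2-2 alone, and whether it followed the list was not tested. Of 14 sugar starvation genes, 3 were called higher in gyf1, 10 in gyf2 and 14 in each double mutant (medians 0.26, 0.67, 1.35 and 1.37). The share called higher among all tested genes followed the same order, at 0.405, 1.99, 14.2 and 15.1%. The list's lowest adjusted p values in the double mutants were those of SEN1 (2.98 and 3.04 in the double mutants), KMD1 (2.46 and 2.27) and TPS11 (1.82 and 1.86). That order of genotypes was also the order of AT2G20670, AT4G32480 and AT3G07350. By their estimates, not all of them called, AT2G38820, AT4G14620 and AT1G62420 had it too. The list holds TPS11, AT3G15450 and KMD1 (AT1G80440), which are among the genes named above as most like AT4G32480 or AT2G20670. It was chosen with these data known, so the shared order is a description and was not tested.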

How the data were processed

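Strand-specific mRNA libraries were made from about 100 mg of seedlings per sample. The authors deposited a count table and an FPKM table. Their processing notes list the aligner HISAT2 (2.0.4), the counter HTSeq (0.6.1p1) and the build TAIR10. Strand setting and treatment of reads matching several genes are not stated there or in the labels. The library factor implied by the deposited FPKM was 0.974 to 1.03 times the count total.

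Counts were analysed in R 4.3.3 with edgeR 4.0.16. filterByExpr left 20721 of 32833 genes and TMM scaled the libraries. A robust quasi-likelihood fit of the 5 genotype means used all 15 libraries (common biological coefficient of variation 7.94%), and 9 comparisons were tested, each adjusted by Benjamini-Hochberg over all tested genes and called at adjusted p below 0.05. SE is the log2 fold change divided by the square root of F. CPM values use the scaled sizes. Pearson correlations used log2 CPM with a prior count of 2. The script was tested on simulated data. Alternatives used DESeq2 1.42.0, limma 3.58.1 on log2(FPKM + 0.5) or log2(FPKM + 1), other scalings, no filter, the compared groups only, the replicate number as a block, and each library left out.

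Proteins were translated from the annotated coding sequences of TAIR10.1 and aligned with MAFFT 7.526. All 10 members, and 99.95% of 32547 shared genes, had the same start and end there as in the deposited tables. Motifs were searched on both strands from 250 bases before to 50 after each gene start. GNATATNC, CACGTG and CGCG can read the same on both strands and were counted once.

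All 10 members are named. For AT4G32480 and AT2G20670 the 5 most correlated genes are named. From each list, the 3 called genes with the lowest adjusted p in the double mutants are named. RHS10, RSL2, RHD2, EXPA7, CAM4, PHR1 and the neighbours BIK1, ROF1, HTA8, AT1G12020 and CDS1 were added after their values were seen. Members and gene lists were chosen with earlier results of these data known.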

Additional observations from a re-analysis of the deposited data

How the results depend on the processing

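The number of the 8 tested members called against WT in gyf1 was 1, and 0 on log2(FPKM + 0.5), on log2(FPKM + 1) and with the compared groups only. In gyf2 against gyf1 it was 2, and 1 on both FPKM scales. Leaving out 1 library at a time gave 0 to 1 in gyf1, 0 to 2 in gyf2 against gyf1 and 2 to 4 in the double mutants against gyf2. The other counts stayed within 1.5 times under these settings. On the FPKM scales, where low genes have compressed changes, AT1G62420 differed from WT by 0.91 and 0.67 in gyf1 gyf2-1 and by 1.09 and 0.81 in gyf1 gyf2-2, and AT3G25240 by 1.36 and 1.00 in gyf1 gyf2-2, all still called.

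Replicate numbers gave a weak sign of pairing. Deviations correlated above 0.1 in 5 of 30 same-numbered pairs of libraries (range -0.0693 to 0.194), against 2 of 60 pairs with different numbers. In addition, 9 of 15 libraries correlated best with their own number. Over all genes, the replicate block raised the calls in every comparison, in gyf2 from 519 to 714. Whether equal numbers share a batch is not stated, so the main fit has no block. With the replicate block, 1, 3, 6 and 7 of 8 members were called in the gyf1, gyf2 and double mutant comparisons with WT, where AT3G22970 was the added call, and the other 5 counts did not move.

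Over all genes, calls in gyf1 were 108, against 175 with DESeq2 and 192 with the replicate block. Without single libraries, calls in gyf2 against gyf1 fell from 199 to 127 (gyf2 replicate 1) and 132 (gyf1 replicate 2), in the double mutants against gyf2 from 4360 to 2823 (gyf2 replicate 2), in non-additivity from 1492 to 994 (gyf1 replicate 2), and between the double mutants from 48 to 21 (gyf1 gyf2-1 replicate 3), against 30 on log2(FPKM + 0.5).

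Signs turned only for values that were not called. AT3G22970 in gyf2 against gyf1 was 0.0043 with no filter, 0.0013 with library totals and 0.0011 with the compared groups only, and -0.043 to 0.039 without single libraries. Between the double mutants it was 0.0010 with library totals and -0.044 to 0.028 without single libraries. AT2G39650 in the double mutants against gyf2 was -0.018 with library totals and -0.067 to 0.20 without single libraries. AT1G12030 between the double mutants was 0.0027 with library totals, and without single libraries -0.19 to 0.12. Without single libraries AT1G12030 also spanned -0.34 to 0.57 in gyf1, -0.25 to 0.30 in the double mutants against gyf2 and -0.66 to 0.25 in non-additivity. AT3G25240 spanned -0.092 to 0.75 in gyf2 and -0.087 to 0.75 in non-additivity, and AT1G62420 -0.49 to 0.083 in gyf1. AT1G12030 had 4 to 20 counts per library and an SE of 0.53 against WT in the double mutants.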

Other observations

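The 4 loci of the table that carry the family's domain and are not among the 10 members were low in seedlings. AT1G77145 had 32 to 74 counts per library and was the only tested one. It measured 2.76 ± 0.416 CPM (SD, n = 3) in WT. The single mutants measured 1.91 ± 0.522 (gyf1) and 2.34 ± 0.614 CPM (gyf2), and the double mutants 2.35 ± 0.481 and 2.22 ± 0.417 CPM. It was not called in edgeR in any of the 4 comparisons with WT, where its log2 differences were -0.54 (adjusted p = 0.492), -0.22 (0.748), -0.23 (0.557) and -0.31 (0.416). All its gyf1 libraries were below those of WT (unadjusted p = 0.0511 in edgeR). AT1G77160 had 54 counts over all 15 libraries, AT3G54550 had 3 and AT1G21475 had 0, and none of them passed the filter.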
